A study of Mus musculus with 21 samples.

Results

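The transient receptor potential C (TRPC) genes *Trpc1*, *Trpc2*, *Trpc4*, *Trpc5*, *Trpc6* and *Trpc7* were taken by symbol from the 35266 genes of the deposited count and TPM tables, which gave 6 genes. Their transcripts were measured by RNA-Seq in AGRP and POMC neurons of the hypothalamic arcuate nucleus of male C57BL/6J mice at postnatal day 46 to 56. AGRP neurons came from NPY-hrGFP mice and POMC neurons from Pomc-GFP mice, and mice of each line were either fed ad libitum (fed, n = 5 for AGRP and n = 5 for POMC) or kept on water without food for 24 hr (FD, n = 6 for AGRP and n = 5 for POMC). Fed and FD mice alike spent these 24 hr alone in a fresh cage. Each library held 44 to 214 fluorescent neurons picked by hand from 1 mouse, so the cells labelled AGRP were chosen by an *Npy* reporter and not by *Agrp* itself. In such pools, fewer cells that express a gene and less of its RNA per cell cannot be told apart. Cell type and mouse line cannot be told apart either, since each cell type came from its own line.

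TRPC proteins are subunits of non-selective cation channels that let calcium and sodium into the cell when receptors coupled to Gq proteins or growth factor receptors activate phospholipase C. TRPC4 and TRPC5 are close relatives with which TRPC1 co-assembles, TRPC6 and TRPC7 are opened by diacylglycerol, and TRPC2 serves pheromone signalling in vomeronasal neurons of rodents. In POMC neurons, which release the satiety peptide precursor proopiomelanocortin, TRPC channels carry the depolarising current evoked by leptin through PI3-kinase. AGRP neurons drive feeding and respond to hormones of energy deficit such as ghrelin.

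Gene counts per library ranged from 9822298 to 37663979 (median 19189780), and 3 counts, taken as the floor, stood for 0.0797 to 0.305 CPM (counts scaled to a common library size). This floor takes in counting error only, since reads were amplified without molecular identifiers. Normalized CPM are CPM on library sizes scaled by TMM, and q is the adjusted p of the edgeR quasi-likelihood test over the 16513 genes with CPM over 1 in at least 3 libraries. A difference was called at q under 0.05, and the comparisons share libraries with each other. Scaling by spike-in counts was tried as an alternative. The counts were divided by the spike-in volume and not by the number of neurons, so this scale stands for RNA per pool. AGRP fed replicate 5 and AGRP FD replicate 3 carried another spike-in mix than the other libraries. Spike-in counts ran from 39097 (AGRP FD replicate 3, 1.2 µl) to 8514459 (AGRP FD replicate 4, 10 µl). In POMC neurons, 10 µl was added to 2 FD and 0 fed libraries. A volume in proportion to the neurons picked went to 2 fed and 0 FD POMC libraries. AGRP libraries of both feeding states held both kinds. On this scale spike-in volume therefore cannot be fully told apart from feeding state in POMC neurons, or from cell type. This scaling put the median log2 fold change over all tested genes at −0.93 in AGRP FD versus fed and −1.28 in POMC FD versus fed. The median was 0.82 and 1.17 in AGRP versus POMC of fed and FD mice, and 0.36 in the interaction. Several values on that scale are also given relative to these medians. On it 66 genes were called in AGRP FD versus fed, 12 of them higher (969 of 1700 with TMM), 349 in AGRP versus POMC of fed mice, 265 of them higher (550 of 1250 with TMM), 685 in that of FD mice, 552 of them higher (1533 of 3064 with TMM), and 1 in POMC FD versus fed, which was lower (30 of 62 higher with TMM). *Agrp* and *Npy*, the peptides of AGRP neurons, summed to 12064 to 68921 TPM in AGRP libraries and to 5.45 to 226 TPM in POMC libraries, and *Pomc* reached 7162 to 23063 TPM in POMC and 7.35 to 69.7 TPM in AGRP libraries. Together, 18 markers of astrocytes, oligodendrocytes, microglia, endothelial cells and tanycytes summed to 6.93 to 31.1 TPM in AGRP fed, 7.13 to 16.2 in AGRP FD, 8.51 to 26.0 in POMC fed and 8.68 to 28.8 in POMC FD libraries. The microglial marker *C1qa* was at 0 in all 4 groups and the endothelial marker *Cldn5* in 3. Other markers of these cells were detected. Group means ran from 0.961 to 2.38 TPM for the microglial *P2ry12* and from 1.63 to 6.09 TPM for the endothelial *Esam*. Markers of other arcuate neurons summed to 442 to 2346 TPM in AGRP and 0.892 to 214 TPM in POMC libraries. Most of the AGRP sum was *Sst*, at a mean of 1404 and 1282 TPM in fed and FD AGRP libraries. In fed and FD POMC libraries *Sst* averaged 80.0 and 17.8 TPM. *Th* averaged 4.76 and 10.1, *Ghrh* 0.754 and 1.83 and *Slc6a3* 0.0736 and 1.5 TPM in fed and FD AGRP libraries. *Kiss1* was at 0 in AGRP libraries. *Tac2* averaged at most 0.0816 TPM there and 7.96 TPM in POMC FD libraries. The source of the *Sst* reads and the part of other arcuate neurons in the results were not tested.

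The 6 genes lie on 5 chromosomes (positions on mm10 as the files give them). *Trpc1* (ENSMUSG00000032839) spans 95705082 to 95750358 on the reverse strand of chromosome 9, and *Trpc6* (ENSMUSG00000031997) 8544196 to 8680565 on the forward strand of the same chromosome. *Trpc4* (ENSMUSG00000027748) lies at 54156057 to 54318470 on chromosome 3, *Trpc5* (ENSMUSG00000041710) at 144381671 to 144688180 on chromosome X, and *Trpc7* (ENSMUSG00000021541) at 56773113 to 56895776 on chromosome 13. These 5 genes passed the filter on low counts, and in the GENCODE M21 annotation they share no exon base with another gene. An antisense gene, *Trpc5os*, runs within *Trpc5* and held at most 50 counts in a library. Counting took no account of strand.

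*Trpc2* did not pass the filter. Its row (ENSMUSG00000070425, chromosome 7, 102065713 to 102096416) is a longer locus named *Xntrpc* in GENCODE M21, which shares 1294 exon bases with *Xndc1*, so its reads are of uncertain origin. It also shares 2741 exon bases with a separate *Trpc2* entry (ENSMUSG00000100254), whose own row held 0 counts in every library. It held 0 to 36 counts per library, with 3 or fewer in 1 of 5 AGRP fed, 4 of 6 AGRP FD, 3 of 5 POMC fed and 3 of 5 POMC FD libraries. The highest library was 1 of POMC fed mice, at 1.44 TPM, and the other 20 libraries were at or under 0.545 TPM. When all 24900 genes with at least 1 count were fitted, the edgeR q for *Trpc2* lay between 0.763 and 1 over the comparisons. No difference in *Trpc2* was detectable from these counts, and the part of depth and that of the overlapping entries cannot be told apart.

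Levels of different genes were compared per length, in TPM. In AGRP neurons *Trpc4* was the most abundant TRPC transcript, at 129 ± 48.3 TPM in fed mice (SD, n = 5) and 119 ± 20.1 TPM in FD mice (SD, n = 6), and it exceeded the next gene of its group in every AGRP library. It made up on average 60.3% of the summed TPM of the 6 genes in fed and 55.5% in FD AGRP libraries. In POMC neurons *Trpc4* made up 12.9% of the sum in fed and 25.4% in FD libraries, and *Trpc5* led at 45.7 ± 19.6 TPM in fed mice (SD, n = 5) and 48.0 ± 21.6 TPM in FD mice (SD, n = 5). The summed TPM was 209 ± 41.2 and 215 ± 33.0 in fed and FD AGRP neurons, against 143 ± 35.5 and 133 ± 20.2 in fed and FD POMC neurons.

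The remaining members followed in a different order in each group. In fed AGRP neurons *Trpc6* averaged 34.0 ± 6.99, *Trpc1* 22.4 ± 6.63, *Trpc5* 14.2 ± 5.12 and *Trpc7* 9.15 ± 6.81 TPM (SD, n = 5). After deprivation the AGRP order below *Trpc4* was *Trpc1* at 35.1 ± 2.94, *Trpc6* at 34.1 ± 5.73, *Trpc5* at 22.9 ± 15.1 and *Trpc7* at 3.26 ± 2.49 TPM (SD, n = 6), with *Trpc1* above *Trpc6* in 3 of 6 libraries. Neither gene of that neighbouring pair stood above the other beyond the spread.

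In fed POMC neurons *Trpc7* averaged 43.2 ± 10.5, *Trpc1* 30.3 ± 3.88, *Trpc4* 19.0 ± 7.61 and *Trpc6* 4.60 ± 1.46 TPM (SD, n = 5), and *Trpc5* exceeded *Trpc7* in only 2 of 5 libraries. In FD POMC neurons the order was *Trpc5*, *Trpc4* at 33.3 ± 11.8, *Trpc1* at 26.5 ± 5.31, *Trpc7* at 23.3 ± 4.87 and *Trpc6* at 1.48 ± 1.42 TPM (SD, n = 5). The first 4 of these did not separate from each other, the upper gene of each neighbouring pair among them being higher in 4 of 5 libraries. *Trpc7* was above *Trpc6* in 5 of 5.

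Over the 20 neighbouring pairs of the 4 groups, the upper gene was higher in every library of its group in 10. For none did the two-sided exact sign-flip permutation test on log2(TPM + 1) pass after Benjamini-Hochberg adjustment, since the smallest adjusted p was 0.125 and the smallest p the test can give is 0.0625 for 5 libraries and 0.0312 for 6.

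**Figure D1:**
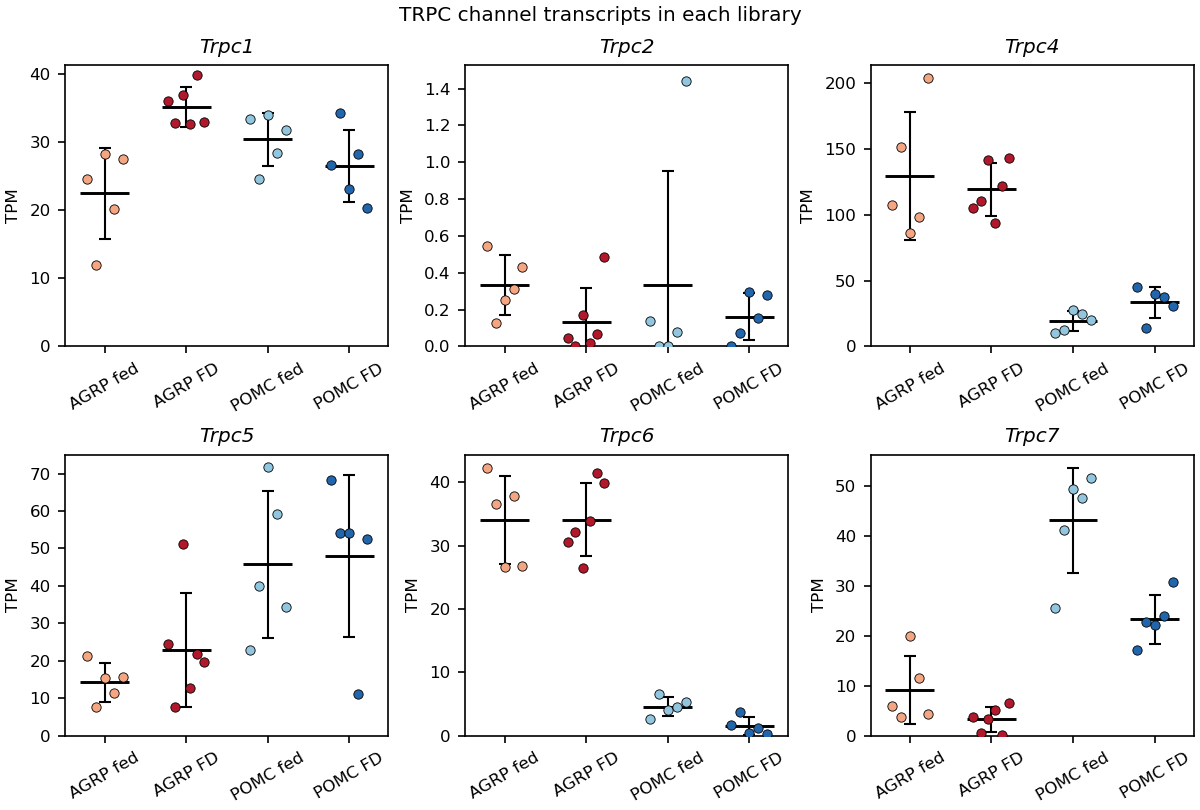
TPM of the 6 TRPC genes (vertical axes, a separate linear scale for each gene) in each library of the 4 groups (horizontal axes), with bars at the mean and whiskers of 1 SD. *Trpc4* and *Trpc6* are high in AGRP libraries (86.1 to 204 and 26.4 to 42.3 TPM) and *Trpc7* in POMC libraries (17.1 to 51.8 TPM), while *Trpc2* stays at or under 1.44 TPM in all of them.

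**Figure D2:**
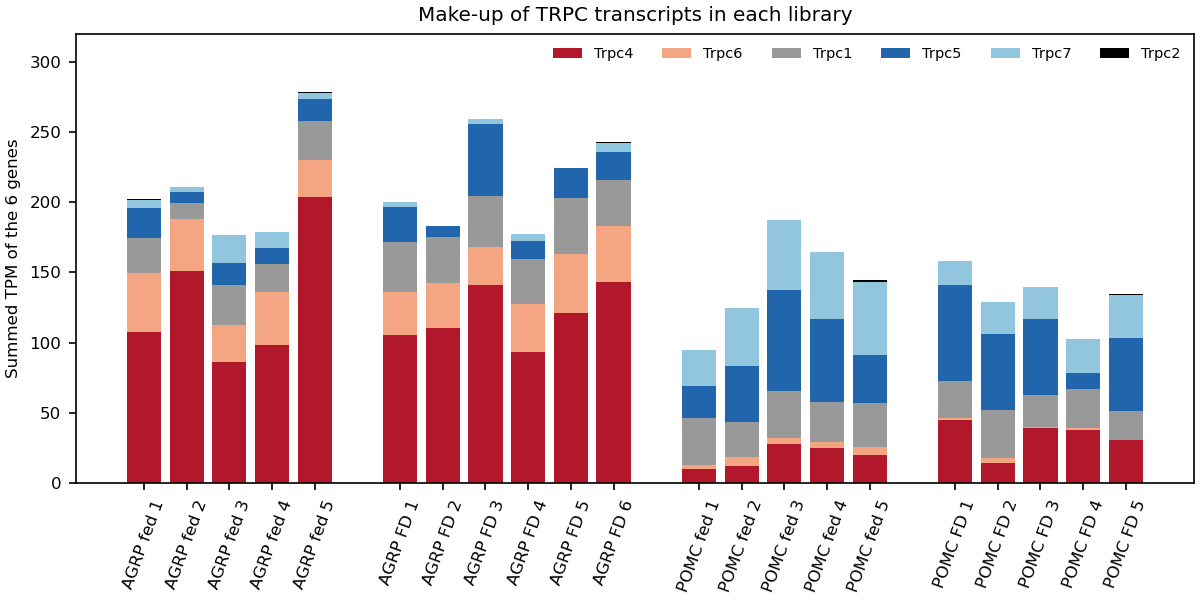
Stacked bars give the summed TPM of the 6 genes (vertical axis, from 0) in each of the 21 libraries, coloured by gene. *Trpc4* takes 48.7% to 73.2% of the sum in AGRP libraries and 9.77% to 36.9% in POMC libraries.

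The first comparison asks which TRPC genes differ between AGRP and POMC neurons of fed mice. Of the 5 tested, 4 were called, 2 higher and 2 lower in AGRP neurons, while 7.57% of all tested genes were called (3.33% higher and 4.24% lower). *Trpc4* and *Trpc6* were higher in AGRP neurons, *Trpc5* and *Trpc7* were higher in POMC neurons, and these 4 directions were the same under each scaling tried. Under scaling by spike-in counts, *Trpc4* passed (q = 0.00414) and *Trpc5* (−0.73, q = 0.748), *Trpc6* (3.32, q = 0.0527) and *Trpc7* (−1.97, q = 0.521) did not. Relative to the median of all genes *Trpc5* lay 1.55 and *Trpc7* 2.79 lower on that scale. All 5 genes, *Trpc1* included, had values that did not overlap between the cell types, as did 8.93% of all tested genes. The 4 called genes also met the stricter criteria for a differentially expressed gene, which 8.08% of the genes over 20 normalized CPM did. These criteria are a log2 fold change beyond 1 in either direction and a mean over that level in a group. In fed mice *Trpc6* exceeded the level only in AGRP neurons, and *Trpc5* and *Trpc7* only in POMC neurons. Meeting it therefore adds nothing to their calls.

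*Trpc4*, which forms receptor-operated channels with TRPC1, was at 102, 160, 83.7, 95.4 and 203 normalized CPM in the 5 fed AGRP libraries and at 13.3, 14.9, 28.9, 26.2 and 20.7 in the 5 fed POMC libraries. The lowest AGRP library was above the highest POMC library, and the log2 fold change was 2.63 (SE 0.29, 95% confidence interval 2.04 to 3.22, edgeR q = 8.48e-08), a 6.19-fold difference.

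*Trpc6*, a diacylglycerol-sensitive channel, was at 34.8, 33.9, 22.6, 32.0 and 23.3 normalized CPM in fed AGRP neurons and at 2.98, 7.03, 3.69, 4.14 and 4.72 in fed POMC neurons. Every AGRP library was high and every POMC library low, and the log2 fold change was 2.70 (SE 0.46, 95% confidence interval 1.75 to 3.64, edgeR q = 0.000137). The median *Trpc6* TPM in fed POMC libraries was 12.2% of that in AGRP libraries, whereas the sum of *Agrp* and *Npy* was 0.276% of it.

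*Trpc5*, a subunit of the leptin-evoked current of POMC neurons, showed the opposite direction. It was at 24.0, 9.63, 18.0, 13.2 and 18.7 normalized CPM in fed AGRP neurons and at 35.6, 58.7, 89.7, 75.4 and 42.6 in fed POMC neurons. POMC libraries varied over a wide range but all lay above the AGRP libraries, with a log2 fold change of −1.85 (SE 0.41, 95% confidence interval −2.70 to −1.01, edgeR q = 0.00314).

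*Trpc7*, the other diacylglycerol-sensitive member, was at 5.76, 4.02, 19.7, 11.5 and 4.44 normalized CPM in fed AGRP neurons and at 33.7, 51.3, 52.3, 51.4 and 54.1 in fed POMC neurons. Its log2 fold change was −2.42 (SE 0.57, 95% confidence interval −3.57 to −1.26, edgeR q = 0.00498). The median *Trpc7* TPM in fed AGRP libraries was 12.6% of that in POMC libraries, while that of *Pomc* was 0.294%.

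*Trpc1*, the broadly expressed partner of TRPC4 and TRPC5, was at 30.4, 16.7, 35.9, 25.7 and 35.9 normalized CPM in fed AGRP and at 56.5, 39.5, 46.4, 39.5 and 42.8 in fed POMC neurons. AGRP libraries were the lower ones, but the log2 fold change of −0.64 (SE 0.24, 95% confidence interval −1.12 to −0.15) did not pass (edgeR q = 0.108). It passed with DESeq2 (−0.61, adjusted p = 0.0486), and under scaling by spike-in counts it was 0.33, which is 0.49 below the median of all genes.

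The bases just before the start of transcription are printed for the 4 genes called between fed AGRP and POMC neurons, *Trpc4* and *Trpc6* first and then *Trpc5* and *Trpc7*, to show the promoter regions of genes that differed in opposite directions. They are the 250 bases upstream of the RefSeq start on GRCm38.p6, 5′ to 3′ on the strand of the gene, in lower case with each CG dinucleotide in capitals. The windows lie at chr3:54155807-54156056 on the forward strand (*Trpc4*), chr9:8543892-8544141 on the forward strand (*Trpc6*), chrX:144688181-144688430 on the reverse strand (*Trpc5*) and chr13:56895790-56896039 on the reverse strand (*Trpc7*).
Trpc4: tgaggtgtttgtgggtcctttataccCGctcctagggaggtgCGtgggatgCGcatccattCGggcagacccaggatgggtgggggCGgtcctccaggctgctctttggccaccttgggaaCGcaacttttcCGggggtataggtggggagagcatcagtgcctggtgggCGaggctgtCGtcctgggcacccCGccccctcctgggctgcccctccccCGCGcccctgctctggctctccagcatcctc
Trpc6: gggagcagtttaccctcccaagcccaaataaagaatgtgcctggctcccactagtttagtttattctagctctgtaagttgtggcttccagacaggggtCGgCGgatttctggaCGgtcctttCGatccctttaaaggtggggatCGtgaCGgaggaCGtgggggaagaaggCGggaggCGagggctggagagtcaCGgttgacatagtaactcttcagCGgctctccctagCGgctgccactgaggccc
Trpc5: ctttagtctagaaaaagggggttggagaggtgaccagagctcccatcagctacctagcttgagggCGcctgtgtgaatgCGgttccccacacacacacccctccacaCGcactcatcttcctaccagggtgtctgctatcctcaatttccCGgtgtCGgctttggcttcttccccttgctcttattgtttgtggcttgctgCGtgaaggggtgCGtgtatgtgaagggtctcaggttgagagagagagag
Trpc7: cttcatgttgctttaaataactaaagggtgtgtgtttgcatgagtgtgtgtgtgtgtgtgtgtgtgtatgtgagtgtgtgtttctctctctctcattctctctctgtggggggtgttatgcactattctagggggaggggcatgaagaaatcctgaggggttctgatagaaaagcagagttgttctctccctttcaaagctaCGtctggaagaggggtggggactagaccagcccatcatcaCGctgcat

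The *Trpc4* and *Trpc6* windows held 12 CG dinucleotides each, at 66.4% and 56.4% GC, the *Trpc5* window 7 at 54.4% GC and the *Trpc7* window 2 at 47.6% GC. Over the 32851 promoter windows of this length the median was 6 CG dinucleotides. In GENCODE M21, *Trpc7* reaches 56895993 and *Trpc4* starts at 54156035. Most of the *Trpc7* window and the end of the *Trpc4* window thus lie inside the genes of that annotation. The part of this in the CG counts was not tested. On either strand, *Trpc4* held TATAAA, which 12.4% of all windows hold, and GGGCGG at 2 positions, which 32.7% hold, while *Trpc6*, *Trpc5* and *Trpc7* held neither. CCAAT (33.8% of windows), CACGTG (6.02%), TGACGTCA (1.55%) and TGTTTAC (3.17%) were found in none of the 4, which says only that these letters are not in these windows.

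The same comparison was made in FD mice. Of the 5 tested genes, 3 were called, *Trpc4* and *Trpc6* higher and *Trpc7* lower in AGRP neurons, and 18.6% of all tested genes were called (9.28% higher and 9.27% lower). The 3 called genes met the stricter criteria (16.4% of genes over that level did). For *Trpc6* the level was exceeded only in AGRP and for *Trpc7* only in POMC neurons, so meeting it adds nothing to their calls. The values of 4 of the 5 genes did not overlap between the cell types, as was the case for 11.4% of all tested genes.

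*Trpc6* had the largest difference of the 5. FD AGRP libraries were at 27.5, 35.5, 26.5, 40.2, 42.1 and 38.4 normalized CPM and FD POMC libraries at 1.54, 3.39, 0.423, 1.08 and 0.217, where the last value stands for 3 counts and lies at the floor. AGRP libraries were higher by a log2 fold change of 4.69 (SE 0.51, 95% confidence interval 3.66 to 5.73, edgeR q = 3.22e-08), a 25.9-fold difference, and 5.42 without replicate 2 of POMC FD, the highest of the POMC libraries. The median *Trpc6* TPM in FD POMC libraries was 3.67% of that in AGRP libraries, and that of *Agrp* and *Npy* together 0.162%.

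*Trpc4* was at 109, 140, 163, 127, 141 and 158 normalized CPM in FD AGRP and at 47.0, 14.6, 40.9, 38.7 and 31.7 in FD POMC neurons, again without overlap. Here AGRP libraries exceeded POMC libraries by a log2 fold change of 2.01 (SE 0.28, 95% confidence interval 1.45 to 2.58, edgeR q = 2.23e-06).

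*Trpc7* was at 3.92, 0.747, 4.00, 7.02, 0.202 and 7.29 normalized CPM in FD AGRP and at 18.3, 23.6, 23.4, 24.8 and 32.4 in FD POMC neurons, with all POMC libraries above all AGRP libraries. This gave a log2 fold change of −2.66 (SE 0.54, 95% confidence interval −3.76 to −1.56, edgeR q = 0.000496). Under scaling by spike-in counts it was −1.66 and did not pass (q = 0.276), at 2.83 below the median of all genes.

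*Trpc5* did not pass in FD mice. FD AGRP libraries were at 30.1, 11.8, 70.4, 20.7, 30.3 and 26.0 normalized CPM and FD POMC libraries at 86.0, 66.4, 67.2, 13.6 and 65.3, so that replicate 3 of AGRP FD lay among the POMC values and replicate 4 of POMC FD among the AGRP values. The log2 fold change was −0.92 (SE 0.38, 95% confidence interval −1.70 to −0.14, edgeR q = 0.0945). It passed with limma-voom (−1.10, adjusted p = 0.0373), without the AGRP library (−1.33, q = 0.0111) and without the POMC library (−1.17, q = 0.019). Under scaling by spike-in counts it was 0.60, which is 0.57 below the median of all genes.

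*Trpc1* averaged 54.3 normalized CPM in FD AGRP and 35.9 in FD POMC neurons, with a log2 fold change of 0.59 (SE 0.23, 95% confidence interval 0.13 to 1.06, edgeR q = 0.068). The values did not overlap, and the difference passed without replicate 2 of POMC FD (0.70, q = 0.0493) and with DESeq2 on all libraries (0.58, adjusted p = 0.0277).

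The next question was which TRPC genes differ with food deprivation in AGRP neurons. Of the 5 tested genes, 1 was called, *Trpc1*, which was higher in FD mice, against 10.3% of all tested genes (5.87% higher and 4.43% lower). It was at 30.4, 16.7, 35.9, 25.7 and 35.9 normalized CPM in the fed libraries and at 48.9, 54.5, 55.7, 58.1, 60.9 and 47.6 in the FD libraries. Every FD library was above every fed library, which held for 7.65% of all tested genes. *Trpc1* rose by a log2 fold change of 0.91 (SE 0.23, 95% confidence interval 0.44 to 1.38, edgeR q = 0.0093), a direction that turned under scaling by spike-in counts. The 1.88-fold difference stays under the fold change required by the stricter criteria, which 8.99% of genes over that level met. The astrocyte marker *Aldh1l1* moved with the same comparison, from 0 to 1 count in fed to 5 to 111 counts in FD libraries (edgeR q = 0.0284). The other 3 astrocyte markers were not called. From fed to FD, *Gfap* (mean 1.64 and 1.03 TPM) and *Aqp4* (0.885 and 0.518) were lower and *Gjb6* (0.115 and 0.460) higher. The summed non-neuronal markers overlapped, and the part of *Aldh1l1* in the *Trpc1* difference was not tested.

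Under scaling by spike-in counts *Trpc1* was at −0.20 (edgeR q = 0.892), which is 0.73 above the median of all genes.

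*Trpc5* and *Trpc7* had intervals that lay on 1 side of 0 but did not pass over all genes. *Trpc5* was at 24.0, 9.63, 18.0, 13.2 and 18.7 normalized CPM in fed and at 30.1, 11.8, 70.4, 20.7, 30.3 and 26.0 in FD AGRP neurons, and the groups overlapped. The log2 fold change was 0.92 (SE 0.39, 95% confidence interval 0.12 to 1.72, edgeR q = 0.15), and 0.51 without the high FD library, replicate 3.

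*Trpc7* had the lowest level of the tested genes in AGRP neurons, 9.08 ± 6.65 normalized CPM in fed (SD, n = 5) and 3.86 ± 2.99 in FD mice (SD, n = 6). Fed replicate 3 was the highest at 19.7 and the FD libraries reached at most 7.29, above 3 of the 5 fed libraries. The log2 fold change was −1.23 (SE 0.52, 95% confidence interval −2.30 to −0.16, edgeR q = 0.148), and −0.74 without fed replicate 3.

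*Trpc4* averaged 129 ± 51.0 normalized CPM in fed (SD, n = 5) and 139 ± 19.9 in FD AGRP neurons (SD, n = 6), with a log2 fold change of 0.11 (SE 0.26, 95% confidence interval −0.42 to 0.65, edgeR q = 0.857). *Trpc6* averaged 29.3 ± 5.90 (SD, n = 5) and 35.0 ± 6.59 (SD, n = 6) normalized CPM, with a log2 fold change of 0.26 (SE 0.41, 95% confidence interval −0.59 to 1.10, edgeR q = 0.786). Neither difference was larger than the spread between libraries.

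In POMC neurons 0 of the 5 tested genes were called with food deprivation by edgeR, as against 0.375% of all tested genes (0.182% higher and 0.194% lower). At an unadjusted p under 0.05 there were 2, *Trpc4* and *Trpc6*. The share of all genes was not taken, so this count cannot be weighed as a result about the family. DESeq2 called 1, *Trpc6*, and 382 of the 16513 tested genes. Limma-voom called 0, and 73 of all tested genes. The only gene whose groups did not overlap was *Trpc7*, which 2.35% of all tested genes matched.

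*Trpc6* was at 2.98, 7.03, 3.69, 4.14 and 4.72 normalized CPM in fed and at 1.54, 3.39, 0.423, 1.08 and 0.217 in FD POMC neurons, from 54 to 190 counts and from 3 to 71 counts per library. FD replicate 2 lay above the lowest fed library and the other 4 lay below all of them. Its log2 fold change was −1.74 (SE 0.46, 95% confidence interval −2.68 to −0.80, edgeR q = 0.0802). It passed with DESeq2 (adjusted p = 0.00923) and without FD replicate 2 (−2.46, edgeR q = 0.0061), and over all alternatives its q ran from 0.00923 to 0.503.

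*Trpc7* was at 33.7, 51.3, 52.3, 51.4 and 54.1 normalized CPM in fed and at 18.3, 23.6, 23.4, 24.8 and 32.4 in FD POMC neurons. All FD libraries were below all fed libraries, yet the log2 fold change of −0.99 (SE 0.54, 95% confidence interval −2.09 to 0.12) did not pass in the fit over all groups (edgeR q = 0.485) or with only the POMC libraries in it (q = 0.147).

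*Trpc4* was at 13.3, 14.9, 28.9, 26.2 and 20.7 normalized CPM in fed and at 47.0, 14.6, 40.9, 38.7 and 31.7 in FD POMC neurons, where all FD libraries but replicate 2 lay above the fed ones. The log2 fold change was 0.73 (SE 0.28, 95% confidence interval 0.17 to 1.30, edgeR q = 0.239), and −0.41 under scaling by spike-in counts, which is 0.88 above the median of all genes.

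*Trpc1* averaged 44.9 ± 7.05 normalized CPM in fed and 35.9 ± 6.95 in FD POMC neurons (SD, n = 5 each), with a log2 fold change of −0.32 (SE 0.24, 95% confidence interval −0.80 to 0.16, edgeR q = 0.634). *Trpc5* averaged 60.4 ± 22.4 and 59.7 ± 27.1, with a log2 fold change of −0.015 (SE 0.40, 95% confidence interval −0.83 to 0.80, edgeR q = 0.995). Libraries of the same group ranged from 35.6 to 89.7 normalized CPM of *Trpc5* in fed and from 13.6 to 86.0 in FD mice.

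Whether deprivation acted alike in both cell types was tested as an interaction, the log2 fold change in AGRP neurons less that in POMC neurons. Of the 5 tested genes 2 were called, *Trpc1* and *Trpc6*, both with a difference above 0, against 6.71% of all tested genes (4.08% above 0 and 2.63% below). Both also met the stricter criteria, as did 9.23% of genes over that level. For *Trpc6* the level was met only through AGRP neurons, at a mean of 29.3 normalized CPM in fed and 35.0 in FD mice. The POMC means were 4.51 and 1.33, so meeting the level adds nothing to the *Trpc6* call. *Trpc1* differed by 1.23 (SE 0.33, 95% confidence interval 0.56 to 1.90, edgeR q = 0.02), from 0.91 in AGRP and −0.32 in POMC neurons, and it passed in each of the 21 fits without 1 library and in 8 of 10 alternatives, spike-in scaling (q = 1) and log2(TPM + 1) with limma (0.88, q = 0.0952) being the others. *Trpc6* differed by 2.00 (SE 0.62, 95% confidence interval 0.73 to 3.26, edgeR q = 0.0474), from 0.26 in AGRP and −1.74 in POMC neurons, but it passed in only 5 of the 21 fits without 1 library (q from 0.00398 to 0.102) and in 4 of 10 alternatives.

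The other 3 did not pass. The difference was −0.62 for *Trpc4* (95% confidence interval −1.39 to 0.15, edgeR q = 0.382), 0.93 for *Trpc5* (−0.21 to 2.07, q = 0.37) and −0.24 for *Trpc7* (−1.76 to 1.28, q = 0.905).

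**Figure D3:**
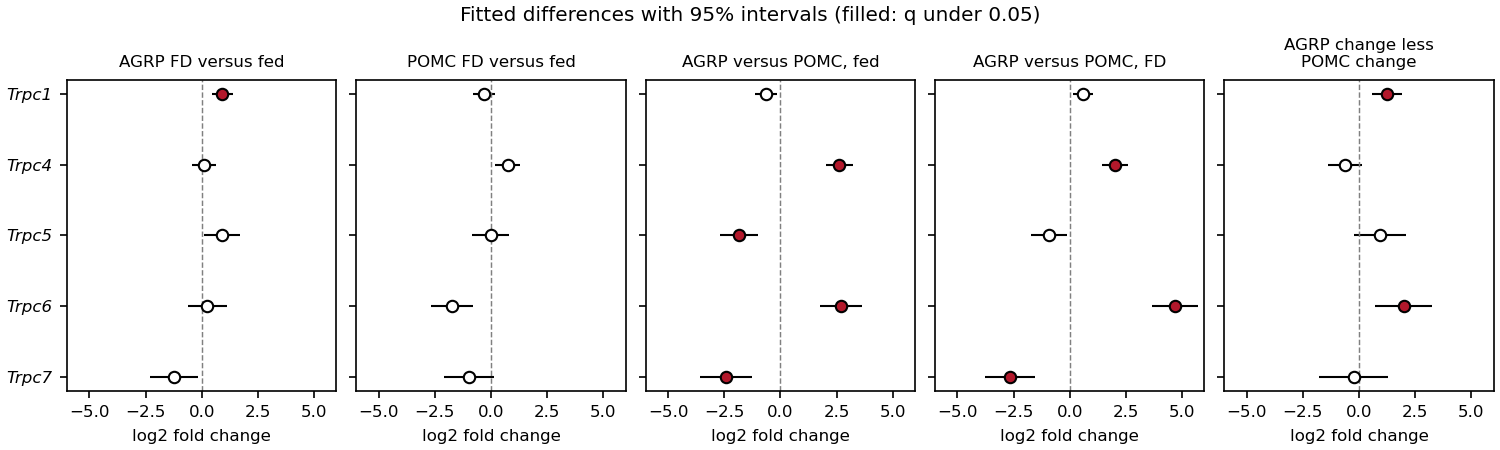
Log2 fold changes (horizontal axes) of the 5 tested TRPC genes in the 4 comparisons and in the AGRP change less the POMC change, with 95% confidence intervals from the edgeR fit and filled points for q under 0.05. *Trpc4* (2.63 and 2.01) and *Trpc6* (2.70 and 4.69) lie right of 0 and *Trpc7* (−2.42 and −2.66) left of it in both comparisons of cell types, also under each scaling tried.

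By the volumes of spike-in in the labels, libraries were placed in 3 sets: 1 µl, 10 µl, or in proportion to the neurons picked, named below the set by cells. AGRP FD replicate 2 had 1 µl for 50 cells, which fits the first and the last, and was placed in the set by cells. In AGRP neurons the last set is also the set of mice at postnatal day 46 to 47, so volume rule and age cannot be told apart there. Each set held fed and FD AGRP libraries, and the *Trpc1* difference between FD and fed, as means of log2(normalized CPM + 1), was 0.98 in the 1 µl set (1 FD and 1 fed library), 1.07 in the 10 µl set (2 and 2) and 0.78 in the set by cells (3 and 2). It was above 0 in all 3 sets. For *Trpc5* it was 0.33, 0.77 and 0.87, and for *Trpc7* −2.49, −0.32 and −1.23. With AGRP FD replicate 2 in the 1 µl set, a choice tried after seeing the data, the 1 µl set and the set by cells gave 0.90 and 0.76 for *Trpc1*, −0.32 and 1.50 for *Trpc5* and −2.22 and −0.73 for *Trpc7*.

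POMC libraries of the 10 µl set were all FD and those of the set by cells all fed, which leaves the 1 µl set with 3 FD and 3 fed libraries. Within it the FD less fed difference was −1.04 for *Trpc6* (means 1.78 and 4.18 normalized CPM), −1.24 for *Trpc7* (21.8 and 52.6) and 0.28 for *Trpc4* (34.2 and 25.2). Between AGRP and POMC neurons, fed mice could be compared in the 1 µl set and the set by cells, where *Trpc4* differed by 1.98 and 3.22, *Trpc6* by 2.79 and 2.32, *Trpc5* by −1.43 and −1.48, *Trpc7* by −2.99 and −2.37 and *Trpc1* by −0.48 and −0.62. In FD mice the 1 µl and 10 µl sets gave 2.17 and 1.98 for *Trpc4*, 4.10 and 4.66 for *Trpc6*, −4.23 and −1.85 for *Trpc7*, −1.23 and −0.36 for *Trpc5* and 0.68 and 0.68 for *Trpc1*. No difference between cell types changed its direction within a set, also with AGRP FD replicate 2 in the 1 µl set. All POMC mice were at postnatal day 51 to 56. In the set by cells fed AGRP mice were at day 46 and fed POMC mice at day 51, so cell type and age cannot be told apart there.

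**Figure D4:**
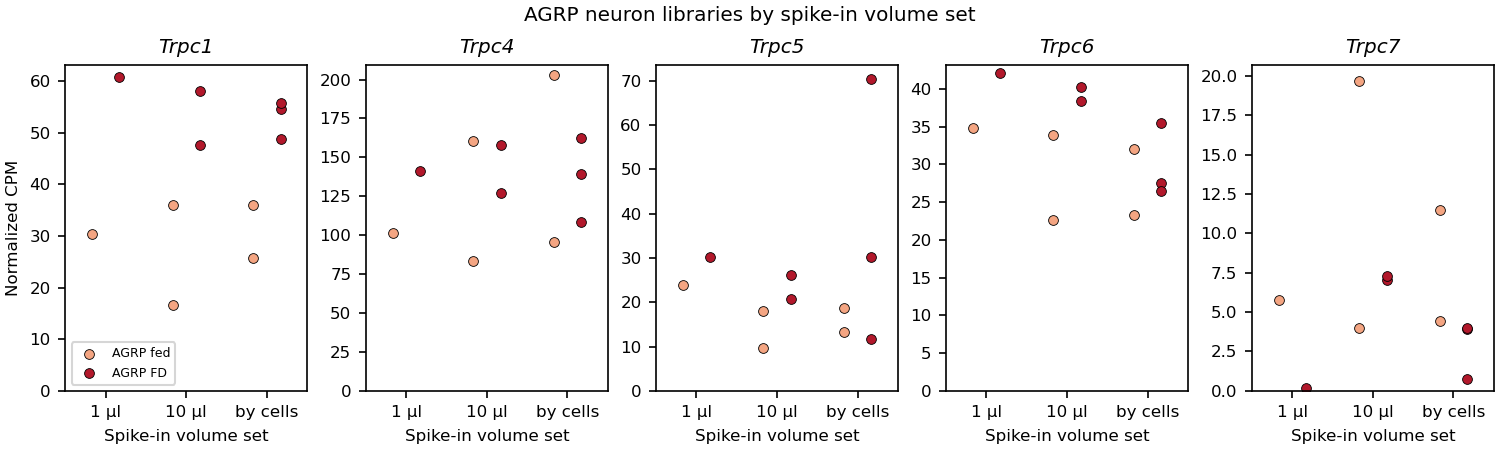
Normalized CPM (vertical axes, from 0) of the 5 tested TRPC genes in the AGRP libraries, by spike-in set on the horizontal axes and coloured by feeding state. For *Trpc1* the FD libraries of each set (47.6 to 60.9) sit above its fed libraries (16.7 to 35.9).

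For each member, the 3 genes with the most similar pattern were taken by Pearson's r of log2(normalized CPM + 1) over the 21 libraries, among 8197 genes with a mean over 20 normalized CPM in a group. The libraries fall in 4 groups, which the points share, so these are descriptions. *Trpc4* was closest to *Elmo1* (r = 0.96), *Ucp2* (0.95) and *Foxo1* (0.94), and *Trpc6* to *Flrt3* (0.96), *Gabre* (0.94) and *Gpc4* (0.94). *Trpc7* was closest to *Utrn* (0.92), *Lrrtm2* (0.92) and *Atp8a2* (0.91). For *Trpc1* the closest were *Stx4a* (0.86), *Arrb1* (0.84) and *Pcsk1* (0.82), and for *Trpc5* *Ryr2* (0.81), *Gm26593* (0.81) and *Ndst3* (0.76). *Foxo1* is a transcription factor under insulin and leptin control, *Ucp2* a mitochondrial uncoupling protein and *Ryr2* a calcium release channel.

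Other genes of the pathway were taken from 6 lists, whose counts stand beside the shares of all tested genes given above for each comparison (in AGRP FD versus fed, 5.87% higher and 4.43% lower). With food deprivation in AGRP neurons, among 9 Gq and phospholipase C genes 0 were called higher and 1 lower, *Plcb1*, a phospholipase C isoform, at 12.6 normalized CPM in fed and 4.96 in FD neurons (log2 fold change −1.34, edgeR q = 0.039), a call that held in 6 of 11 fits without 1 library and in 6 of 11 alternatives, not with limma-voom (adjusted p = 0.215). The list had a median of −1.09, against −0.023 for all tested genes. *Gnaq* (mean 505 normalized CPM in fed and 499 in FD) and *Gna11* (111 and 133) did not show such a drop. Nor did *Plcb4* (140 and 193) and *Plcg1* (76.6 and 96.3). *Gna14*, *Plcb2*, *Plcb3* and *Plcg2* averaged at most 7.60 normalized CPM in fed neurons and were lower in FD. Among 8 genes of IP3 receptors and store-operated entry 1 was called higher, the IP3 receptor *Itpr1* (0.73, q = 0.0125, median of the list 0.37).

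Among 6 PI3-kinase genes 1 was called higher in FD AGRP neurons, the regulatory subunit *Pik3r1* (1.29, edgeR q = 0.000342, median of the list 0.16). Among 10 tested binding partners of TRPC proteins, the scaffold *Homer1* was higher (1.15, q = 0.0214) and its relative *Homer2* lower (−1.19, q = 0.0297), with a list median of 0.16, and these calls held in 8 and 5 of 11 fits without 1 library. Among 9 receptors upstream, the leptin receptor *Lepr* (2.39, q = 6.04e-09) and the ghrelin receptor *Ghsr* (1.72, q = 0.002) were higher, and the list median was 0.90. The muscarinic receptor *Chrm5* was lower, with 4 to 102 counts in fed and 0 to 4 counts in FD libraries (q = 0.0029). Under scaling by spike-in counts *Itpr1* (−0.37), *Pik3r1* (−0.16) and *Homer1* (−0.16) turned, and *Plcb1*, *Homer2*, *Lepr* (1.12, q = 0.588) and *Ghsr* (0.32, q = 0.817) kept their direction but did not pass, while *Chrm5* passed.

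Other TRP channels were listed as 21 genes, of which 11 passed the filter. In FD AGRP neurons *Trpv2* was higher (0.88, edgeR q = 0.0226) and *Trpm2*, a channel opened by ADP-ribose, lower (−1.89, q = 0.0435), and the list median was −0.070. These calls held in 8 and 3 of 11 fits without 1 library, and under scaling by spike-in counts neither passed (*Trpv2* 0.091, q = 0.951, and *Trpm2* −2.94, q = 0.143). In POMC neurons 0 of the 53 tested genes of the 6 lists were called by edgeR with food deprivation, as against 0.375% of all tested genes. Of the 53, 11 had an unadjusted p under 0.05. The share of all genes was not taken, so this count cannot be weighed as a result about the lists. The list medians lay between −0.27 and 0.42.

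Between fed AGRP and POMC neurons, *Plcb4* was higher in AGRP neurons (1.28, edgeR q = 0.00246) and *Plcb1* lower (−1.96, q = 0.00407), and *Plcb2* was called lower, though 596 counts in 1 POMC library stood against 0 to 25 in the other 4 and 0 to 3 in the AGRP libraries, and it did not pass without that POMC library (replicate 4, q = 0.49). The neuronal microtubule regulator *Stmn2* was lower in AGRP neurons (−1.90, q = 1.49e-11), as were the PI3-kinase subunits *Pik3r1* (−0.82, q = 0.0282) and *Pik3r3* (−0.88, q = 0.00277) and the calmodulin genes *Calm2* (−0.56, q = 0.0201) and *Calm3* (−0.62, q = 0.0249). Under scaling by spike-in counts, *Pik3r1*, *Pik3r3*, *Calm2* and *Calm3* turned to between 0.053 and 0.45 and *Plcb1*, *Plcb2*, *Plcb4* and *Stmn2* did not pass, and of 10 fits without 1 library the calls held in 4 for *Pik3r1*, 8 for *Calm2* and 5 for *Calm3*. *Ghsr* was higher in AGRP neurons (5.93, q = 8.01e-11). Of the store-operated entry list and of the other TRP channels 0 were called here by edgeR. At an unadjusted p under 0.05 there were 1 of 8 and 2 of 11. The share of all genes was not taken, so these counts cannot be weighed as a result about the lists.

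In FD mice the cell types differed in *Plcb4* (1.35, edgeR q = 0.000435), *Plcb1* (−3.29, q = 1.73e-06), *Plcb2*, *Stmn2* (−2.05, q = 9.02e-13), *Pik3r3* (−0.99, q = 0.000192, but 0.092 under scaling by spike-in counts), *Ghsr* (9.43, q = 1.83e-13), *Lepr* (3.51, q = 9.02e-13) and *Chrm5*. *Plcb2* was at 0 or 1 count in the FD AGRP libraries and at 1 to 39 counts in the FD POMC libraries. *Orai2*, a store-operated channel subunit, was called at 1.25 (q = 0.049) and passed in 3 of 11 alternatives and in 3 of 11 fits without 1 library, and *Pkd2*, a polycystin of the TRP superfamily, was higher in AGRP neurons (1.18, q = 0.0109). Of these, *Lepr*, *Ghsr* and *Chrm5* passed under scaling by spike-in counts and the others did not. In the interaction, *Lepr* (3.09, q = 3.18e-08), *Ghsr* (3.50, q = 0.00036) and *Chrm5* (q = 0.0302) were called among the genes of the 6 lists. None of the 3 passed under scaling by spike-in counts (q from 0.184 to 0.58), *Ghsr* (adjusted p = 0.0689) and *Chrm5* (0.0779) did not pass with limma-voom, and *Chrm5* passed in 16 of 21 fits without 1 library.

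**Figure D5:**
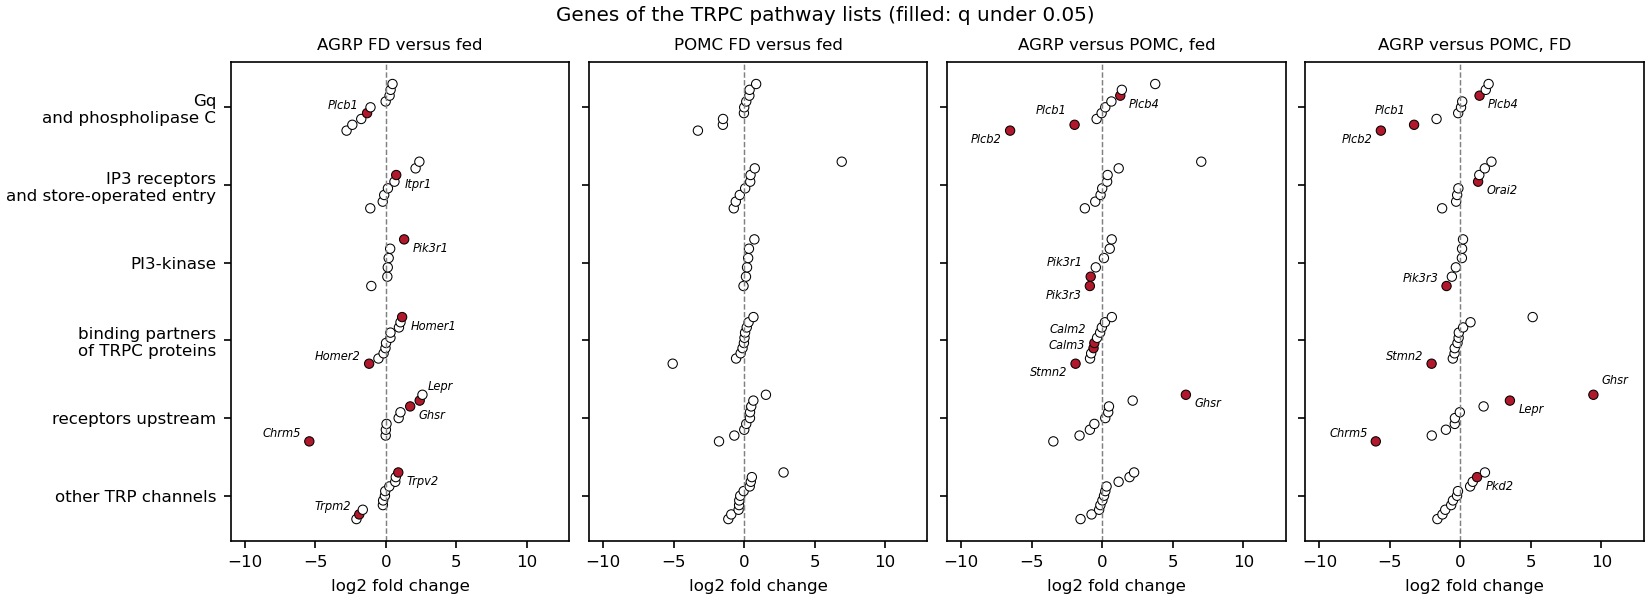
Log2 fold changes (horizontal axes) of the tested genes of the 6 pathway lists (rows, points of a list spread vertically for visibility) in the 4 comparisons, filled and named where q was under 0.05 in the edgeR fit. Filled points are present in AGRP FD versus fed and in both comparisons of cell types, and 0 in POMC FD versus fed, and several of them turn under scaling by spike-in counts.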

How the data were processed

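RNA-Seq was performed on 21 pools of manually sorted fluorescent neurons, amplified with the NuGEN Ovation kit and carrying ERCC spike-ins. Per the labels and the study's methods, the authors trimmed reads with cutadapt 1.7.1, screened abundant sequences with Bowtie2 2.1.0, aligned to mm10 with STAR 2.4.0i and made the deposited counts per gene with HTSeq 0.6.1p1, without regard to strand. TPM values were computed by the authors from these counts and summed exon lengths. The table held 35266 genes, 92 ERCC entries and 5 summary entries, the last of which stayed out of library sizes. No-feature reads were 24.2% to 52.1% and ambiguous reads 0.951% to 1.57% of each library.

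Groups were taken from the labels. Genes with CPM over 1 in at least 3 libraries were tested with the quasi-likelihood test of edgeR 4.0.16 in R 4.3.3 (TMM, all 4 groups in 1 fit), with Benjamini-Hochberg adjustment. Alternatives were limma-voom (limma 3.58.1, the test of the study's methods), DESeq2 1.42.0, RLE size factors, no filter, only the compared groups, blocks for replicate number, age cohort and spike-in set, sorted cells as a covariate, spike-in scaling, limma on log2(TPM + 1), and leaving out each library. Promoter bases came from RefSeq (GRCm38.p6). Named genes were the members, up to 4 called genes per list and direction, and the 3 genes most like each member. Members and lists were chosen with earlier results of these data known. Each library is a separate mouse, and the code was tested on simulated data. 1 further gene of the family and 1 of the pathway lists are not reported here, and the counts and medians of the lists leave them out.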

Additional observations from a re-analysis of the deposited data

Results flagged for a closer look

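In 5 of 24 groups of libraries, the highest or lowest value lay apart from the rest by Dixon's criterion at 95%, which chance alone meets in about 1 of 20 groups. *Trpc5* in AGRP FD replicate 3 reached 70.4 normalized CPM (nearest 30.3). *Trpc5* in POMC FD replicate 4 stood at 13.6 (nearest 65.3). *Trpc7* in POMC fed replicate 1 stood at 33.7 (nearest 51.3). *Trpc2*, close to the floor throughout, was at 0.670 in AGRP FD replicate 6 (nearest 0.243) and at 1.85 in POMC fed replicate 5 (nearest 0.221).

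The response to food deprivation differed between AGRP and POMC neurons for *Trpc1*, by 1.23 on the log2 scale (edgeR q = 0.02), and for *Trpc6*, by 2.00 (edgeR q = 0.0474). The *Trpc6* difference rests on 3 to 71 counts in the FD POMC libraries and passed in 5 of 21 fits without 1 library.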

How the results depend on the processing

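Over the members, the alternatives kept direction and side of the threshold for 245 values, with 12 no longer passing, 4 newly passing and 9 reversed, and leaving out 1 library did so for 289, with 16, 4 and 6. *Trpc4* in both comparisons of cell types and *Trpc6* in FD mice passed under all 11 alternatives. Scaling by spike-in counts left 0 members called in AGRP FD versus fed, 0 in POMC FD versus fed, 1 between fed cell types (*Trpc4*), 2 between FD cell types (*Trpc4* and *Trpc6*) and 0 in the interaction. It reversed *Trpc1* (−0.20), *Trpc4* (−1.15) and *Trpc6* (−0.73) in AGRP FD versus fed, *Trpc4* (−0.41) in POMC FD versus fed, *Trpc1* (0.33) between fed and *Trpc5* (0.60) between FD cell types, and *Trpc7* (0.31) in the interaction. Among pathway genes, an addition chosen after seeing the data, it reversed *Itpr1* (−0.37), *Pik3r1* (−0.16) and *Homer1* (−0.16) in AGRP FD versus fed, *Pik3r1* (0.45), *Pik3r3* (0.092), *Calm2* (0.053) and *Calm3* (0.10) between fed cell types and *Pik3r3* (0.092) between FD cell types.

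DESeq2 called 1 member in POMC FD versus fed, and leaving out 1 library gave 0 to 1. The interaction had 1 called member with limma-voom, RLE, the spike-in set block and the sorted cells covariate, 0 with log2(TPM + 1), and 1 to 2 without 1 library. Reversed too were *Trpc4* in AGRP FD versus fed with log2(TPM + 1) (−0.061) and without 1 library (−0.0052 to 0.34), *Trpc5* in POMC FD versus fed with the spike-in set block (0.13) and without 1 library (−0.18 to 0.24, with 0.17 and 0.077 without POMC fed replicates 3 and 4), and *Trpc7* in the interaction without 1 library (−0.51 to 0.24, with 0.0083 without AGRP FD replicate 5). The cause was not tested. The replicate block gave 1, 0, 4, 3 and 2 called members over the 5 comparisons and changed no call. Same-numbered libraries, from different mice, correlated at −0.122 to 0.0511, and 5 of 40 correlated best with their own number, so the numbers were not taken as pairs. Depth limits *Trpc6* in FD POMC neurons, and *Trpc2* was low in all groups.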
